A study of Homo sapiens with 2 samples.

Results

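The 10 genes described here encode transcription factors that set the identity of B cells and of the plasma cells they give rise to, taken by gene symbol from the deposited table, which holds 50229 symbols. Of the 10, IRF4, PRDM1 and POU2AF1 were treated as plasma cell factors, MYC and TCF3 as factors used across B cell stages, and PAX5, BCL6, BACH2, SPIB and EBF1 as factors of earlier B cells. Poly(A) RNA of ARP1, a line established from multiple myeloma, a plasma cell malignancy, was sequenced in 2 libraries. One is labelled siVCP, with knockdown of VCP as its treatment, and 1 is labelled siNC, the control. VCP encodes the ATPase p97, which pulls ubiquitin-tagged proteins out of complexes and membranes for the proteasome. VCP itself had an FPKM (fragments per kilobase of transcript, scaled to library size) of 65.9 in the library labelled siVCP against 47.7 in that labelled siNC, a fold of 1.38 [1.33 to 1.43]. The targeted transcript was therefore not lower under the knockdown label, and every direction given here belongs to the labels. Total counts were 68872657 in the library labelled siVCP against 72566092 in that labelled siNC. With 1 library a group there is no replicate error and no test, and nothing here separates the treatment from any other difference between the 2 libraries. Each bracket holds the 95% interval of a fold or level from counting error alone. Fewer cells that express a gene and less of its RNA per cell cannot be told apart in such bulk RNA.

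Plasma cells arise when a mature B cell gives up one set of transcription factors for another. PAX5, EBF1, BCL6, BACH2 and SPIB keep the B cell and germinal centre programmes running and hold back secretion, whereas IRF4 and PRDM1 (the gene of BLIMP-1) switch those programmes off and install the secretory state. The circuits are mutually repressive: PRDM1 represses PAX5, BCL6, MYC and SPIB, and BCL6 and BACH2 repress PRDM1. Myeloma cells keep the plasma cell set and depend on IRF4, which drives MYC and is in turn driven by it.

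The upstream sequences of the genes on which the results turn are shown because the factors act on each other's regulatory regions. IRF4 is the most abundant member, PRDM1 and BACH2 have the lowest ratios between the libraries, and EBF1 has no counts. Each line holds the 250 bases before a RefSeq start site on GRCh38.p14, written 5′ to 3′ along the gene, with the match to a searched motif in capitals.

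IRF4, chr6:391502-391751, plus strand: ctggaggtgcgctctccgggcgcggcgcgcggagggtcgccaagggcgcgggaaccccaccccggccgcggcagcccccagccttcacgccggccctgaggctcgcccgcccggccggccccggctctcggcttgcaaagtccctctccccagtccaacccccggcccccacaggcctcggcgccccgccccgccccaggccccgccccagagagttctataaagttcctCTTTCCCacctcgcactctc

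PRDM1, chr6:106086086-106086335, plus strand: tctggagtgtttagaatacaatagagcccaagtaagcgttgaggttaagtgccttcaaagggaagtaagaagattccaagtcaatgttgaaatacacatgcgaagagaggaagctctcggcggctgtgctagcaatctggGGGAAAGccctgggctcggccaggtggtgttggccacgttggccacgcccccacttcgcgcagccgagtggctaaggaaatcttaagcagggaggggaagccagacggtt

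PRDM1, chr6:106098691-106098940, plus strand: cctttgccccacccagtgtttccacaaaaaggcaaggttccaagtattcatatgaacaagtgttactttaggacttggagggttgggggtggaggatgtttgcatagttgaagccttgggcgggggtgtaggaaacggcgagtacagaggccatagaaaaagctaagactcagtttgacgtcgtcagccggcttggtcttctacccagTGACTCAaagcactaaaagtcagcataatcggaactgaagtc

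BACH2, chr6:90296844-90297093, minus strand: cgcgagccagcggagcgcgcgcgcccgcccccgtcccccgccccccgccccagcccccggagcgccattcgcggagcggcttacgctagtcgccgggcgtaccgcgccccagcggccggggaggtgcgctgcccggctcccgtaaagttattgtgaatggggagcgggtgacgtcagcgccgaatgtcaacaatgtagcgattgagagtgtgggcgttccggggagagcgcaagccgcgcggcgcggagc

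EBF1, chr5:159097957-159098206, minus strand: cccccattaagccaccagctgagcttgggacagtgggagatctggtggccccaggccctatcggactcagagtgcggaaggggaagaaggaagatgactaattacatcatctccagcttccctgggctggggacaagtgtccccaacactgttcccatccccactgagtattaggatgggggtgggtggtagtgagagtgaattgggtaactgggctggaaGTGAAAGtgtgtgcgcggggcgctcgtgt

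Of the 10 genes, 8 had an upstream window in the RefSeq table, BCL6 and PRDM1 had 2 each, and POU2AF1 and MYC had none. A set of 8 motifs was searched on both strands. A match to GNGAAAG, a loose form of the core bound by PRDM1 in which N is any base, lay at -20 to -14 from the IRF4 start. It was read there on the opposite strand. Other matches lay at -110 to -104 from the first PRDM1 start and at -29 to -23 from the EBF1 start. The base at N was G in the IRF4 and PRDM1 matches and T in the EBF1 match. Of all 35116 RefSeq windows of the same length, 19.4% held this loose form. Both PRDM1 starts lie inside the deposited PRDM1 row, and the second had TGACTCA at -42 to -36, a match to TGANTCA, which BACH2 with its small MAF partners and AP-1 can bind and which 6.57% of all windows held. BCL6 had a match to the same motif in 1 of its windows, and its other window held TTCCGAGAA, a match to TTCNNNGAA, the motif shared by BCL6 and STAT factors (6.57% of all windows). SPIB had 1 match to CCCNNGGG, which EBF1 binds (17.1% of all windows). No match was found in any member for the octamer ATGCAAAT (1.63% of all windows), the interferon response element GAAANNGAA (6.88%), the MYC E box CACGTG (6.34%) or the PU box GAGGAAGT (2.17%). The 7 matches did not overlap each other. GC content was 76.0% before IRF4 and 73.6% before BACH2, with 53.6% and 48.8% before the PRDM1 starts and 57.2% before EBF1. These letters describe the windows and say nothing of binding in ARP1.

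The plasma cell factors were high and the earlier B cell factors were low or undetected in both libraries. The summed FPKM of the plasma cell factors was 247.6 in the library labelled siVCP against 260.1 in that labelled siNC. The summed FPKM of the earlier B cell factors was 5.65 in the library labelled siVCP against 7.42 in that labelled siNC. The first sum was therefore 43.8 times the second in the library labelled siVCP against 35.1 times in that labelled siNC. Single pairs went either way. The FPKM of IRF4 was 129.2 times that of PAX5 in the library labelled siVCP against 110.1 times in that labelled siNC. That of PRDM1 was 32.3 times that of PAX5 in the library labelled siVCP against 43.1 times in that labelled siNC. For PRDM1 over BACH2 the values were 16.6 and 17.2, in the same order. IRF4 alone made up 57.7% of the FPKM of all 10 genes in the library labelled siVCP against 52.8% in that labelled siNC.

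**Figure D1:**
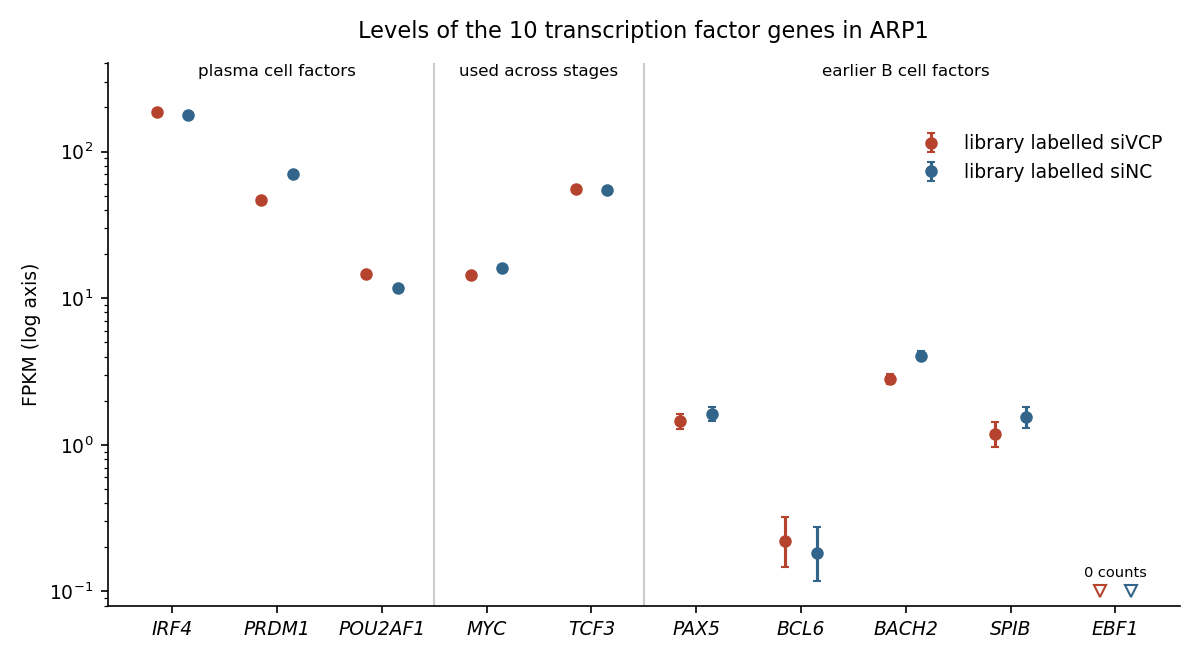
FPKM of each factor gene (log axis) in the libraries labelled siVCP and siNC, 1 point a library, with bars for the 95% counting interval. All plasma cell factors lie above 11 FPKM and all earlier B cell factors below 5 FPKM in both libraries, and EBF1, drawn as open triangles at the foot, had 0 counts.

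The order of levels was the same in both libraries but for 2 places. In the library labelled siVCP, TCF3 (FPKM 55.4 [54.1 to 56.7]) stood above PRDM1 (46.6 [45.5 to 47.8]). In the library labelled siNC, PRDM1 (69.8 [68.5 to 71.2]) stood above TCF3 (54.6 [53.3 to 55.8]). POU2AF1 and MYC also changed places, but in the library labelled siVCP their intervals overlapped, as did those of PAX5 and SPIB in both libraries. In each library IRF4 was highest, and BACH2, PAX5, SPIB, BCL6 and EBF1 followed the other factors in that order.

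Of the pair that installs the plasma cell state, IRF4 was near equal in the libraries and PRDM1 was lower in the library labelled siVCP. IRF4 (ENSG00000137265; GRCh38 chr6:391752-411443, plus strand), an interferon regulatory factor on which myeloma cells depend, had 186.3 FPKM in the library labelled siVCP against 178.5 FPKM in that labelled siNC, from 90441 and 91389 counts. The fold was 1.04 [1.02 to 1.06] for the library labelled siVCP over that labelled siNC. PRDM1 (ENSG00000057657; chr6:105993463-106109939, plus strand), a zinc finger repressor of the B cell programme, had 46.6 FPKM in the library labelled siVCP against 69.8 FPKM in that labelled siNC, from 25990 and 41023 counts. PRDM1 was the member with the lowest ratio, at a fold of 0.668 [0.648 to 0.689]. Its interval overlapped those of BACH2, SPIB and BCL6 and lay below those of IRF4, POU2AF1, MYC, TCF3 and PAX5. The FPKM of IRF4 was 3.99 times that of PRDM1 in the library labelled siVCP against 2.56 times in that labelled siNC.

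Differences were also expressed as a log2 ratio, log2 of (FPKM + 1) in the library labelled siVCP over that in the library labelled siNC, a scale that shrinks differences between low values. On this scale PRDM1 had -0.57, just inside the 1.5-fold line at -0.58. Of 1093 genes whose mean level lay within 2-fold of that of PRDM1, 30 had a ratio as low or lower, or 2.74%, and the median of the 1093 was 0.10. The row of PRDM1 overlaps 2 others that had counts. ATG5, an autophagy gene on the opposite strand, had 5.31 FPKM in the library labelled siVCP against 5.28 FPKM in that labelled siNC. The noncoding row AL022067 on the same strand had 2.21 FPKM in the library labelled siVCP against 1.71 FPKM in that labelled siNC. Both rows were far below PRDM1, and neither was lower in the library labelled siVCP. Whether reads were shared between these rows was not tested.

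POU2AF1 (ENSG00000110777; chr11:111352255-111455630, minus strand) encodes OBF-1, a coactivator that B cells and plasma cells use at octamer sites, among them those of immunoglobulin promoters. It had 14.7 FPKM in the library labelled siVCP against 11.8 FPKM in that labelled siNC, a fold of 1.24 [1.17 to 1.32] and a log2 ratio of 0.29. POU2AF1 was thus the member with the highest ratio among those with an FPKM of at least 1, and the plasma cell factors lay on both sides of the rest. Of 3738 genes whose mean level lay within 2-fold of that of POU2AF1, 80.0% had a ratio as low or lower. For IRF4 this share was 50.9% of 322 genes. Over the 3 plasma cell factors the median log2 ratio was 0.06 and the mean -0.07, so the pair differs in sign, and the median over all 11645 genes that reached 1 FPKM in either library was -0.02.

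Of the factors used across stages, TCF3 was close to equal in the libraries and MYC was slightly lower in the library labelled siVCP. TCF3 (ENSG00000071564; chr19:1609290-1652615, minus strand), which encodes the E proteins E12 and E47, had 55.4 FPKM in the library labelled siVCP against 54.6 FPKM in that labelled siNC, a fold of 1.02 [0.982 to 1.05]. MYC (ENSG00000136997; chr8:127735434-127741434, plus strand), the growth regulator that is often activated in myeloma, had 14.4 FPKM in the library labelled siVCP against 16.1 FPKM in that labelled siNC. Its fold was 0.892 [0.830 to 0.960] and its log2 ratio -0.15. The MYC interval excluded 1 on counting error alone, while that of TCF3 did not.

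The earlier B cell factors were read at low depth, and none had a higher level in the library labelled siVCP beyond counting error. BACH2 (ENSG00000112182; chr6:89926528-90296908, minus strand), a repressor that delays plasma cell differentiation, was the most abundant of them. Its FPKM was 2.81 in the library labelled siVCP against 4.06 in that labelled siNC, from 2271 and 3464 counts, a fold of 0.691 [0.621 to 0.769]. SPIB (ENSG00000269404; chr19:50418938-50431314, plus strand), an ETS factor of B cells, had 1.18 FPKM in the library labelled siVCP against 1.55 FPKM in that labelled siNC, a fold of 0.762 [0.587 to 0.986]. PAX5 (ENSG00000196092; chr9:36833269-37034268, minus strand), the factor that commits cells to the B lineage, had 1.44 FPKM in the library labelled siVCP against 1.62 FPKM in that labelled siNC. The PAX5 fold of 0.890 [0.757 to 1.04] was within counting error, so a difference was not detectable at this depth.

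BCL6 (ENSG00000113916; chr3:187721377-187745725, minus strand), the repressor that maintains germinal centre B cells, had 0.222 FPKM in the library labelled siVCP against 0.184 FPKM in that labelled siNC. It rested on 111 and 98 counts, and its fold of 1.21 [0.675 to 2.18] allows a difference in either direction. EBF1 (ENSG00000164330; chr5:158695916-159099761, minus strand), which specifies early B cells together with TCF3 and PAX5, had 0 counts in both libraries. A count of 0 allows up to 12 counts a library, so no fold is given. BCL6 and EBF1 did not reach an FPKM of 1 in either library and are left out of the medians that follow. Of the 5 earlier B cell factors, 3 were measured above that level, all with a log2 ratio below 0 and a median of -0.23. Over all 5 the median was -0.10, from the value of PAX5. Among genes within 2-fold of each one's mean level, the median was -0.07 for BACH2, -0.12 for SPIB and -0.11 for PAX5. The share of those genes with a ratio as low or lower was 14.7%, 36.8% and 51.6%, in the same order.

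**Figure D2:**
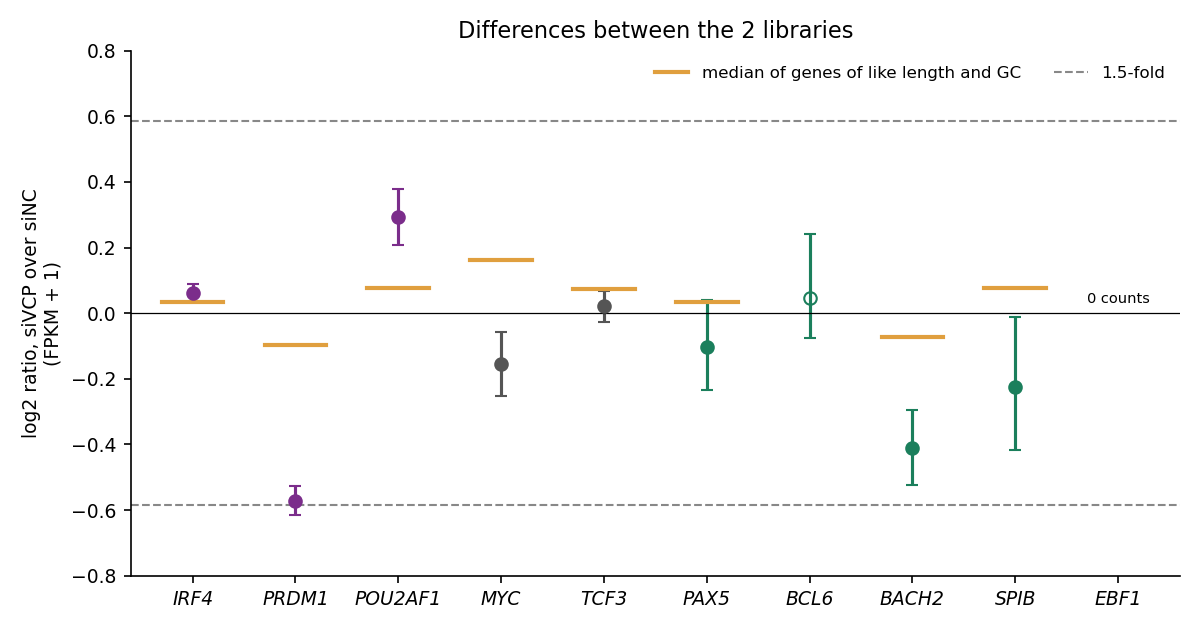
Log2 ratio of each factor gene, the library labelled siVCP over that labelled siNC, with 95% counting intervals, the median of measured genes of like transcript length and GC content (short bars) and the 1.5-fold lines (dashed). PRDM1 at -0.57 lies just inside the lower line and POU2AF1 at 0.29 is highest, and BCL6 (open symbol) stayed under an FPKM of 1.

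Of the 8 members that reached 1 FPKM in either library, 0 lay 1.5-fold or more higher and 0 lay 1.5-fold or more lower by the log2 ratio. Among all 11645 such genes, 4.53% lay that far higher and 5.87% that far lower, so a count of 0 among 8 genes is near this background. Over the 8 members, 3 had a ratio above 0 and 5 below, with a median of -0.13. The 2 groups of factors overlapped: by the log2 ratio, PRDM1 lay below all 3 measured earlier factors, and IRF4 and POU2AF1 above them. By fold, however, the counting interval of PRDM1 overlapped those of BACH2 and SPIB, and that of IRF4 overlapped that of PAX5.

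**Figure D3:**
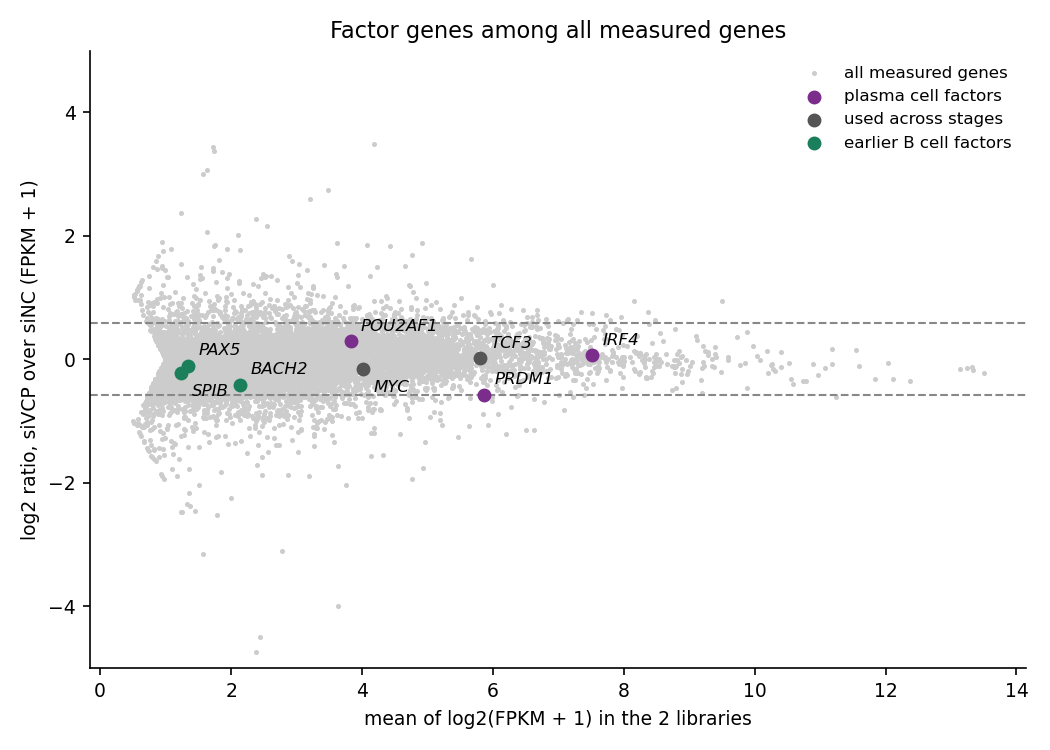
Log2 ratio of every gene that reached 1 FPKM in either library against its mean log2(FPKM + 1), with the measured factor genes in colour by role and the 1.5-fold lines dashed. The measured factors lie between the 1.5-fold lines, PRDM1 at the lower one.

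Ratios in these libraries also moved with transcript length and GC content. When measured genes were put in 5 classes of equal size by transcript length, the median log2 ratio was 0.08 in the shortest class and -0.16 in the longest. In 5 classes by GC content it was -0.19 in the lowest and 0.07 in the highest. Genes in the same class of both as PRDM1 (transcript of 5164 bases, 45.7% GC) had a median of -0.10, so the difference of PRDM1 from them was -0.47. The difference from the same kind of median was -0.34 for BACH2, -0.32 for MYC, -0.30 for SPIB, -0.14 for PAX5 and -0.05 for TCF3, against 0.03 for IRF4 and 0.22 for POU2AF1. In all, 6 of 8 lay below genes of like length and GC content. The part of length and GC content in these differences was not tested.

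Markers were read to see what the cells were. Of 14 plasma cell programme genes, 13 reached 1 FPKM, while CD27, a surface receptor, had 0 counts in the library labelled siVCP against 10 in that labelled siNC. The FPKM of SDC1 (syndecan-1) was 257.1 in the library labelled siVCP against 223.5 in that labelled siNC. That of TNFRSF17, the receptor BCMA, was 48.5 in the library labelled siVCP against 46.8 in that labelled siNC. Of 10 B cell surface genes, 9 stayed under an FPKM of 1 in both libraries, and CD40 and CXCR5 were among those with 0 counts in both. The summed FPKM of these 10 genes was 2.69 in the library labelled siVCP against 5.66 in that labelled siNC, mostly from CD79A. Markers of other lineages were low. Their summed FPKM in the libraries labelled siVCP and siNC was 1.74 and 2.74 for 5 T cell genes, 3.11 and 2.58 for 6 myeloid genes, 0.544 and 0.564 for 4 erythroid genes, and 2.53 and 2.80 for 5 stromal and epithelial genes. CD3D, CD8A, ITGAM, GATA1 and COL1A2 had 0 counts in both.

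The listed octamer factors and IRF4 partners had more ratios above 0 than below, and the octamer factor genes lay on both sides of 0. Of 10 octamer factors and IRF4 partners, 7 were measured, with 5 ratios above 0, 2 below, 0 past 1.5-fold in either direction and a median of 0.17. With 4.53% of all measured genes that far higher and 5.87% that far lower, a count of 0 among 7 genes is near the background. The median of all measured genes was -0.02. The median of the length and GC classes of the 7 was 0.09. BATF3 and BATF, AP-1 family proteins that pair with IRF4 on composite sites, had log2 ratios of 0.46 and 0.44. BATF had 17.1 FPKM in the library labelled siVCP against 12.3 FPKM in that labelled siNC, a fold of 1.39 [1.17 to 1.64]. POU2F2, the B cell octamer factor OCT2 that recruits POU2AF1, lay on the other side at -0.41, with 2.08 FPKM in the library labelled siVCP against 3.09 FPKM in that labelled siNC, and JUN had -0.01. SPI1, the ETS partner PU.1, had 0 counts in both libraries. By distance in log2(FPKM + 1) over the 2 libraries, the listed genes nearest to POU2AF1 were BATF (0.21) and MAFG (0.25), and those nearest to PRDM1 were TCF3 (0.43) and CDK4 (0.54). IRF4 lay nearest LDHA (0.17) and NPM1 (0.38), MYC nearest CREB3L2 (0.10) and MAFG (0.17), and TCF3 nearest CDK4 (0.18) and JUND (0.21). With 2 libraries such distances say little beyond a like level.

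None of the measured genes that PRDM1 is known to repress in plasma cells had a ratio above 0. Of the 9 listed, 5 were measured, all with ratios below 0, 0 past 1.5-fold in either direction and a median of -0.23. MYC, PAX5, SPIB and BCL6 are members themselves. Among all 11645 measured genes, 5.87% lay that far lower and 4.53% that far higher, with a median of -0.02. ID3, an inhibitor of E proteins, had 27.9 FPKM in the library labelled siVCP against 39.1 FPKM in that labelled siNC, a log2 ratio of -0.47. CIITA, the master regulator of HLA class II genes, had -0.30. Of the 5 measured, PAX5 at -0.10, within counting error, and MYC at -0.15 had the highest ratios. BCL6, under an FPKM of 1 in both libraries, had 0.05, on counts that allow either direction. CXCR5 had 0 counts in both libraries.

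Few of the genes that PAX5 activates were measured. Of 10 listed, 4 were measured, all with ratios below 0 and a median of -0.44, with 0 at least 1.5-fold higher and 1 at least 1.5-fold lower. That gene was CD79A, a chain of the B cell receptor complex, with 2.36 FPKM in the library labelled siVCP against 4.94 FPKM in that labelled siNC, a fold of 0.477 [0.351 to 0.643] and 262 and 578 counts. With a pseudocount of 5 its log2 ratio was -0.43, under the 1.5-fold line. IKZF3, the lymphoid zinc finger factor Aiolos, had -0.46 and 12.4 FPKM in the library labelled siVCP against 17.5 FPKM in that labelled siNC. Within classes of length and GC content IKZF3 had -0.28. BACH2 had -0.41 and LEF1 -0.23. The list median was -0.14 with no filter, -0.29 with a pseudocount of 5 and -0.31 within classes of length and GC content. Over all measured genes, 5.87% lay at least 1.5-fold lower and 4.53% at least 1.5-fold higher.

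Other transcription factors of the B lineage were more often lower than higher in the library labelled siVCP. Of 24, 15 were measured, with 12 ratios below 0, 3 above, 3 at least 1.5-fold lower, 0 at least 1.5-fold higher and a median of -0.26. Over all 11645 measured genes, 5.87% lay that far lower and 4.53% that far higher, with a median of -0.02. The list median was -0.11 with no filter and -0.19 with a pseudocount of 5. KLF2, a factor of lymphocyte quiescence and homing, was lowest at -0.85, with 24.5 FPKM in the library labelled siVCP against 45.0 FPKM in that labelled siNC, a fold of 0.544 [0.510 to 0.581]. The ETS factor genes ELF1 and FLI1 had -0.62 and -0.59, and FLI1 was named after its value was seen. Of these 3, KLF2 stayed past 1.5-fold under the alternatives run. ELF1 was -0.45 and FLI1 -0.49 within classes of length and GC content, and ELF1 was -0.55 and FLI1 -0.42 with a pseudocount of 5. RUNX1 (0.31) and STAT6 (0.23) were highest. XBP1, the secretory factor downstream of PRDM1, had 433.8 FPKM in the library labelled siVCP against 436.9 FPKM in that labelled siNC. Of the 15, 11 had transcripts in the 2 longest classes, and the median of their length and GC classes was -0.07.

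Around TCF3, the E protein and ID network had 5 of 6 genes measured, 3 with ratios below 0 and 2 above, with a median of -0.34 and 0 past 1.5-fold in either direction. The related E protein gene TCF12 had -0.46, beside ID3 at -0.47, while ID2 had 0.05 and ID1 0.12. The list median was -0.17 with a pseudocount of 5 or with no filter, and -0.11 within classes of length and GC content, where TCF12 had -0.16 and ID2 turned to -0.11. The ratio of TCF3 itself was 0.02, and its difference from genes of like length and GC content was below 0. The corepressors that PRDM1 and BCL6 recruit were spread around 0, with 4 of 9 above, 5 below, none past 1.5-fold and a median of -0.00. As 4.53% of all measured genes lay that far higher and 5.87% that far lower, counts of 0 in both lists are near the background. PRMT5 (0.45) and EHMT2 (0.34), which encode histone methyltransferases, were highest, and BCOR (-0.38) and NCOR1 (-0.28), corepressors of BCL6 and nuclear receptors, lowest.

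Around MYC, its partner and an antagonist stood on opposite sides. MAX, the obligate dimer partner, had 7.52 FPKM in the library labelled siVCP against 3.70 FPKM in that labelled siNC, a fold of 2.03 [1.82 to 2.27]. MXI1, which competes with MYC for MAX, had 4.24 FPKM in the library labelled siVCP against 8.55 FPKM in that labelled siNC, a fold of 0.495 [0.445 to 0.550]. The FPKM of MYC was 3.39 times that of MXI1 in the library labelled siVCP against 1.88 times in that labelled siNC. In that list of 11, 10 were measured, 2 with ratios above 0 and 8 below, 1 at least 1.5-fold higher, 1 at least 1.5-fold lower and a median of -0.21. For all measured genes the shares that far higher and lower were 4.53% and 5.87%, and the median was -0.02. With a pseudocount of 5, MAX (0.53) and MXI1 (-0.55) were both under the 1.5-fold line. MLX had 0.24 and MYCN -0.38.

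MYC target genes were more often higher than lower in the library labelled siVCP. All 16 were measured, 10 with ratios above 0 and 6 below, 3 at least 1.5-fold higher, 0 at least 1.5-fold lower and a median of 0.16. Over all measured genes, 4.53% lay that far higher and 5.87% that far lower, with a median of -0.02. The median of the length and GC classes of the 16 was 0.08. NOP56, a nucleolar protein gene, had 28.1 FPKM in the library labelled siVCP against 16.5 FPKM in that labelled siNC, a fold of 1.71 [1.61 to 1.81]. SRM, the spermidine synthase gene, had 129.8 FPKM in the library labelled siVCP against 78.4 FPKM in that labelled siNC, a fold of 1.66 [1.58 to 1.73]. ODC1, the first enzyme of polyamine synthesis, was the other past 1.5-fold, at 0.63, and was named after its value was seen. TERT (-0.29) and NPM1 (-0.15) were lowest. Within classes of length and GC content, NOP56 (0.57) and ODC1 (0.51) were under the 1.5-fold line and SRM (0.63) stayed past it.

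BACH2 acts as a dimer with small MAF proteins, and of the 4 genes in the list of BACH2 relatives and partners 1 lay past 1.5-fold on the higher side and 0 on the lower side. MAFK had 8.12 FPKM in the library labelled siVCP against 2.61 FPKM in that labelled siNC, a fold of 3.11 [2.69 to 3.60] and a log2 ratio of 1.34. MAFF had -0.47, BACH1 -0.02 and MAFG 0.01, and the median of the list was -0.01. The shares of all measured genes past 1.5-fold were 4.53% on the higher side and 5.87% on the lower side.

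The plasma cell programme downstream of these factors was mixed. Of 14 genes, 13 were measured, with 4 ratios above 0, 9 below, 1 at least 1.5-fold higher, 0 at least 1.5-fold lower and a median of -0.13. Across all measured genes, 4.53% lay that far higher and 5.87% that far lower, with a median of -0.02, so these counts are near that background. DERL3, a gene of ER-associated degradation, had 6.11 FPKM in the library labelled siVCP against 3.68 FPKM in that labelled siNC, a log2 ratio of 0.60, and the surface receptor gene SLAMF7 had 0.57. JCHAIN, the joining chain of secreted IgA and IgM, had 485.3 FPKM in the library labelled siVCP against 712.3 FPKM in that labelled siNC, a log2 ratio of -0.55, and CD38 had -0.47. Within classes of length and GC content CD38 had -0.28, and PIM2 at -0.44 was then lower. DERL3 was 0.55 within those classes and 0.36 with a pseudocount of 5, both under the 1.5-fold line, and SLAMF7 passed that line at 0.60 when the libraries were rescaled to the same FPKM sum.

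**Figure D4:**
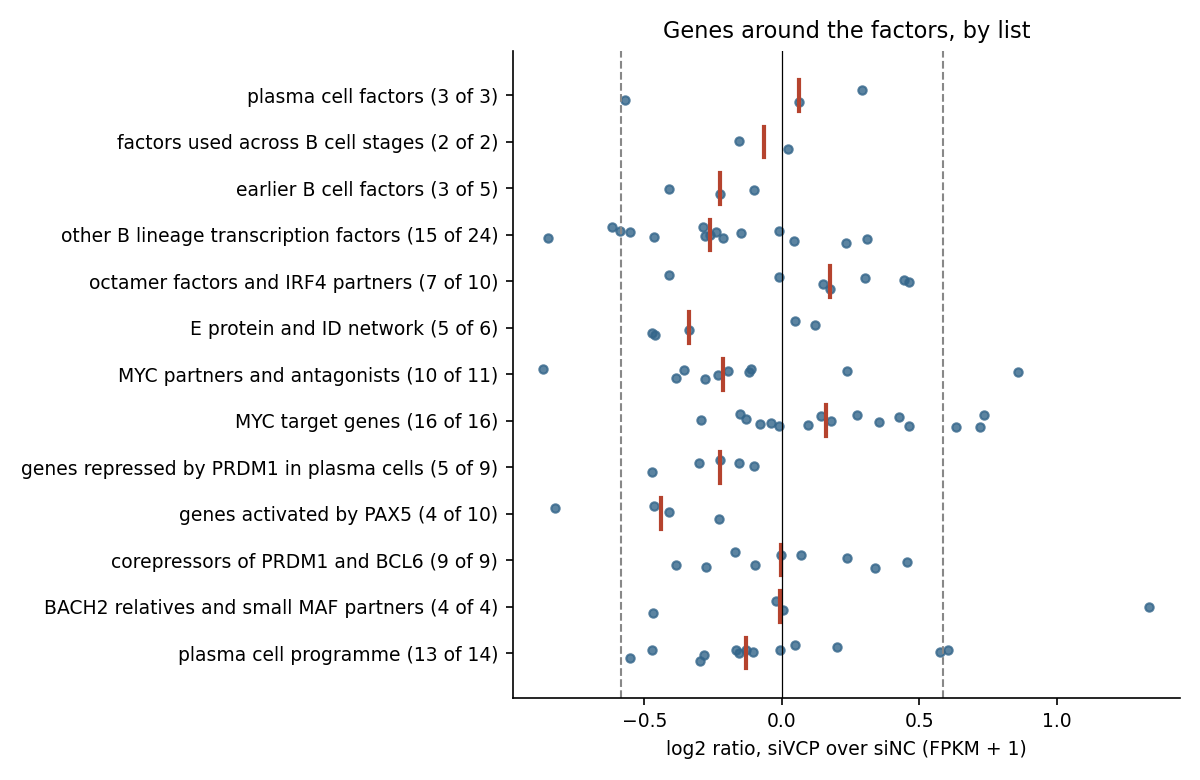
Log2 ratios (FPKM + 1, the library labelled siVCP over that labelled siNC) of the measured genes of each list, with the number measured of the number listed, the list median as a vertical bar and the 1.5-fold lines dashed. MAFK at 1.34 and MAX at 0.86 lie farthest to the right, and MXI1, KLF2 and CD79A, all below -0.8, farthest to the left.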

How the data were processed

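Poly(A) RNA of ARP1 was sequenced as paired ends in 2 libraries, 1 labelled siVCP and 1 labelled siNC, per the labels' protocols. FPKM values and counts per gene were deposited by the authors. HISAT2 2.0 and StringTie 1.3.0 appear, per the submitters' processing notes, with no role given. Build and strandedness are not given in the sources used here. GENCODE 29 holds 58394 of the gene identifiers, 90.6% of them with the same start or end, so coordinates are read as GRCh38.

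The FPKM floor of rows with a count of 0 was set to 0, and rows sharing a symbol were summed. Each member had 1 row. The counts deposited by the authors pile up at 4 (1205 rows at 4 against 417 at 3 and 244 at 5 in the library labelled siVCP), so 1 fragment was taken as 4 counts, an inference that no source states. Intervals are exact binomial (folds) or Poisson (levels) from counts divided by 4, they cover counting error only, and fragments without molecular identifiers are not independent molecules. No test was run. The log2 ratio used a pseudocount of 1, and a gene counted as measured where it reached 1 FPKM in either library. Length and GC content are those of the longest basic protein-coding GENCODE 29 transcript, which 83.1% of measured genes had.

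Members and lists were chosen with earlier results of these data known. Named were the members, VCP, up to 2 highest and 2 lowest ratios of each list, any list gene given only as its level, and the 2 listed genes nearest to each member with an FPKM of at least 5. Alternatives were pseudocounts of 0.1 and 5, other filters, 2 rescalings, CPM from counts, the highest row per symbol, undivided counts, a 2-fold threshold and, chosen after seeing the data, length and GC classes. The steps were tested on simulated data. The software was scipy 1.17.1, pandas 2.3.3, numpy 2.4.6 and, for plots, matplotlib 3.10.9, under Python 3.11.15. Sequences are from RefSeq (GRCh38.p14). Some listed genes are not reported here.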

Additional observations from a re-analysis of the deposited data

How the results depend on the processing

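No paired analysis was possible because siVCP and siNC label 1 library each, which also means that none could be omitted. No member was at least 1.5-fold higher or lower under any alternative run, and PRDM1 ranged from -0.58 to -0.47. Signs held under all of them for IRF4, PRDM1, POU2AF1, MYC, PAX5, BACH2 and SPIB, while TCF3 ranged from -0.05 to 0.08. Over the settings that can change them, 38 of 48 recomputed member ratios stayed inside their counting interval and 10 did not. BACH2 ranged from -0.52 to -0.21 and SPIB from -0.37 to -0.08. With counts not divided by 4, the log2 interval of PAX5 was -0.17 to -0.03 and no longer held 0. The median of the plasma cell factors (0.06) moved outside its interval to 0.0904 after rescaling to the same FPKM sum, to 0.0913 after rescaling to a median log2 ratio of 0, to 0.13 with CPM from the counts, to 0.0212 with MYC and TCF3 added and to 0.0269 within length and GC classes, an alternative chosen after seeing the data. The median of the earlier B cell factors ranged from -0.37 with a pseudocount of 0.1 to -0.08 with a pseudocount of 5, and none of them reaches an FPKM of 5. The genes at least 1.5-fold higher and lower, 528 and 684, numbered 163 and 141 with a pseudocount of 5, 328 and 288 with an FPKM of at least 5, and 122 and 153 at 2-fold, and the lower ones 1351 with a pseudocount of 0.1. The median of the BACH2 relatives and partners was 0.67 with an FPKM of at least 5, which leaves MAFK and MAFG. Rescaling to the same sum, and CPM from the counts, turned the medians of that list to 0.02 and 0.05 and that of the corepressors to 0.02 and 0.06.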
